A study of Mus musculus with 4 samples.

Results

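The genes described here are 10 that govern or mark the choice between the CD4 and the CD8 lineage of T cells, out of 50600 gene rows in the deposited tables. They were taken by symbol: the coreceptor genes Cd4, Cd8a and Cd8b1, the zinc finger gene Zbtb7b, the Runt-domain genes Runx1, Runx2 and Runx3 with their partner gene Cbfb, and the HMG-box genes Tox and Tox2. RNA was sequenced from mouse primary cells, strain C57BL/6NJ, which the labels call T-helper 17 cells, in 4 libraries numbered as biological replicates 1 to 4. The labels give each library its own biosample record but the same donor record, leave sex and age open, and link to a differentiation protocol for CD4 T cells. They name no genetic change, treatment or control group, and output names in the headers hold a tag for hour 0. What the tag means is not stated, so whether the levels describe differentiated Th17 cells or CD4 T cells before differentiation cannot be told apart. Nothing in the labels says that the libraries came from separate animals, so p-values measure only the spread between these 4 libraries, which may be technical.

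Developing T cells in the thymus carry both coreceptors and then keep CD4 or CD8. CD4 binds MHC class II, CD8 binds MHC class I, and both bring the kinase LCK to the T-cell receptor. Zbtb7b encodes ThPOK, which is needed for the CD4 fate and represses Runx3 and the CD8 genes, whereas RUNX3 is needed for the CD8 fate and silences Cd4. CBFB does not bind DNA itself and strengthens DNA binding by the RUNX proteins, and TOX is needed for CD4 T cells to develop.

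The libraries held 29041979 to 48808978 counted fragments. Levels are given in TPM, which divides counts by gene length and scales every library to the same sum. Of 21751 nuclear protein-coding genes, 45.6% were at 1 TPM or more in every library, the share to set beside each list count. Of the T-cell list 12 of 12 genes were at that level, led by Trac at 3069 ± 37.3 and Trbc2 at 2932 ± 88.3 TPM (SD, n = 4 here and below). The Th17 list had 8 of 14 at that level, led by Stat3 at 117 ± 5.72, Batf at 85.4 ± 10.2 and Irf4 at 9.98 ± 1.87 TPM, with the cytokine genes Il17f at 9.83 ± 3.10 and Il17a at 4.22 ± 1.53 TPM. The receptor genes Il23r and Ccr6, which define Th17 cells, were near 0, at 0.0728 ± 0.0423 and 0.229 ± 0.189 TPM. Il21, Ccl20, Il22 and Il1r1 had means of 0.730 ± 0.352, 0.683 ± 0.240, 0.183 ± 0.187 and 0.0801 ± 0.0318 TPM. The rest of the list, Rora at 2.47 ± 0.372, Maf at 2.08 ± 0.226 and Ahr at 1.38 ± 0.0587 TPM, were at 1 TPM or more in every library. Replicate 4 stood apart in heat shock genes, a list added after seeing the data, of which 12 of 14 had their highest TPM there. Of nuclear protein-coding genes at 1 TPM or more in every library, 24.7% had their highest TPM in replicate 4. Il17f and Il17a were highest in replicate 1, at 14.4 and 6.36 TPM, against 7.69 to 9.21 and 3.06 to 4.30 TPM in the others.

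The DNA at the starts of the Runx genes is shown first, because the 3 genes share a start sequence that holds the core letters of a RUNX site. Binding was not measured. RefSeq (build GRCm38.p6) gave windows of 250 bases before to 50 after a start for 7 of the 10 genes, 14 windows in all. The longest stretch common to a start of Runx1, of Runx2 and of Runx3 was 18 bases, printed in capitals within 30 bases of each gene's own strand. Counted from the start, its first base lies at +27 in Runx1, +22 in Runx2 and -136 in Runx3.
Runx1, chr16:92826025-92826054, minus strand: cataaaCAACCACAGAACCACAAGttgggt
Runx2, chr17:44814583-44814612, minus strand: cacaaaCAACCACAGAACCACAAGtgcggt
Runx3, chr4:135120503-135120532, plus strand: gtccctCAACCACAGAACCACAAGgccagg

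The stretch holds 2 copies of ACCACA, the reverse complement of TGTGGT, the core letters of a RUNX site, and the copies do not overlap. The whole stretch occurred in 4 of 32851 start windows, those of the 3 Runx genes and that of Gm16225, whose window overlaps the Runx3 one. The stretch was taken from these Runx windows, so the count cannot show that it is particular to Runx starts. TGTGGT on either strand occurred in 16.8% of all windows and in 4 of the 14 windows of the genes described here. Beside the 3 Runx starts the fourth was a start of Zbtb7b, shown because ThPOK and RUNX3 oppose each other, with the letters in capitals at -89 from that start.
Zbtb7b, chr3:89387743-89387772, minus strand: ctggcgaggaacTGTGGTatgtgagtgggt

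The windows of Cd8a, Cbfb and Tox2 do not hold these letters, nor do the other windows of Runx1, Runx3 and Zbtb7b. Their absence says nothing about binding. A letter match is a description, not a site, and gene counts do not tell which start was used.

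Levels fell into a high and a trace set. Of the 10 genes, 7 were at 1 TPM or more in every library, against 45.6% of 21751 nuclear protein-coding genes. The other 3, Cd8a, Runx2 and Tox2, were below 1 TPM in every library. The median of the 10 genes was 38.1 TPM, against 0.355 TPM for nuclear protein-coding genes.

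**Figure D1:**
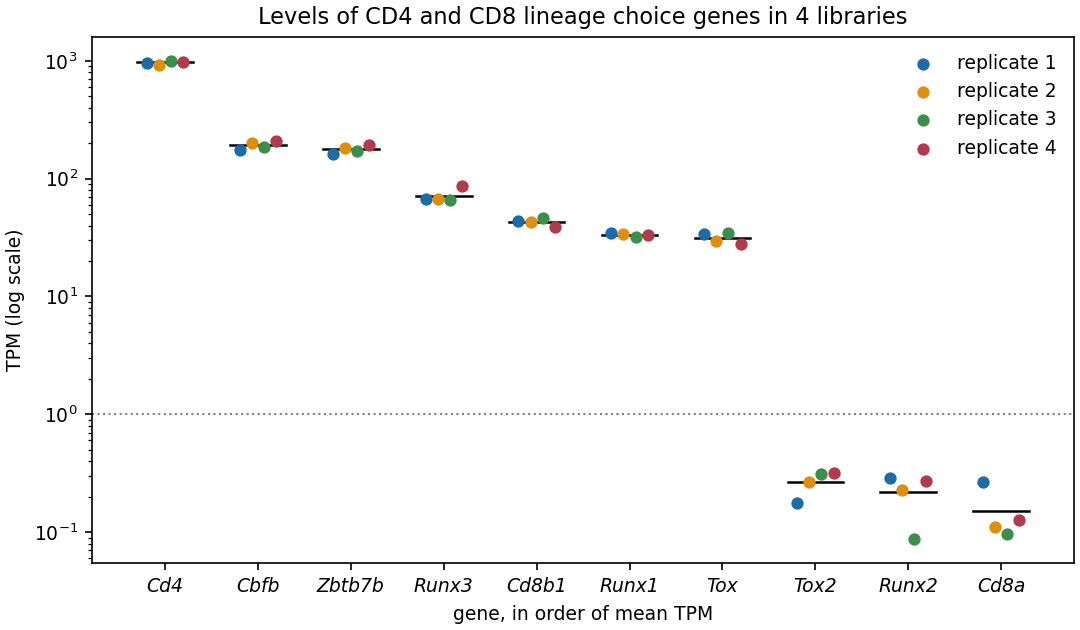
TPM on a log scale (vertical) for each of the 10 genes (horizontal) in the 4 libraries (coloured points), with the mean as a bar and 1 TPM as a dotted line. Cd4 lies between 923 and 1003 TPM, 6 genes lie between 28 and 207 TPM, and Tox2, Runx2 and Cd8a lie below 0.4 TPM.

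Cd4 was the highest of the 10 genes. Cd4 (ENSMUSG00000023274, mm10 chromosome 6, 124864692 to 124888221, minus strand) measured 963, 923, 1003 and 985 TPM in replicates 1 to 4. Its mean stood at percentile 99.6 among nuclear protein-coding genes, and its coefficient of variation, 3.53%, was the smallest of the 10.

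The CD8 genes were uneven. Cd8a (ENSMUSG00000053977, mm10 chromosome 6, 71373427 to 71379173, plus strand), which encodes the alpha chain that binds LCK, had 8, 4, 5 and 6 counts in replicates 1 to 4, or 0.264, 0.111, 0.0967 and 0.128 TPM. Its 23 counts in all have an exact 95% Poisson interval of 14.6 to 34.5, which covers counting error only. Cd8b1 (ENSMUSG00000053044, mm10 chromosome 6, 71322788 to 71337494, plus strand), which encodes the beta chain, had 535, 635, 970 and 748 counts, or 43.3, 43.1, 46.0 and 39.0 TPM. The ranges did not overlap, with 4 to 8 fragments of Cd8a and 535 to 970 of Cd8b1 in a library.

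Cd8b1 exceeded Cd8a by 7.47 ± 0.42 on the log2 scale of TPM with a pseudocount of 0.1, in 4 of 4 libraries, and by 5.25 with a pseudocount of 1. Cd4 exceeded Cd8b1 by 4.50 ± 0.11 on that scale in 4 of 4 libraries, a 22.7 ± 1.75-fold ratio of TPM. Of the summed TPM of the 3 coreceptor genes, Cd4 held 95.7% ± 0.294, Cd8b1 4.24% ± 0.294 and Cd8a 0.0148% ± 0.00771. For each of the 10 gene pairs compared, the two-sided exact sign-flip permutation test over 4 libraries gave p = 0.13, the smallest that 4 libraries allow, and adjustment over the 10 pairs left it at 0.13.

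**Figure D2:**
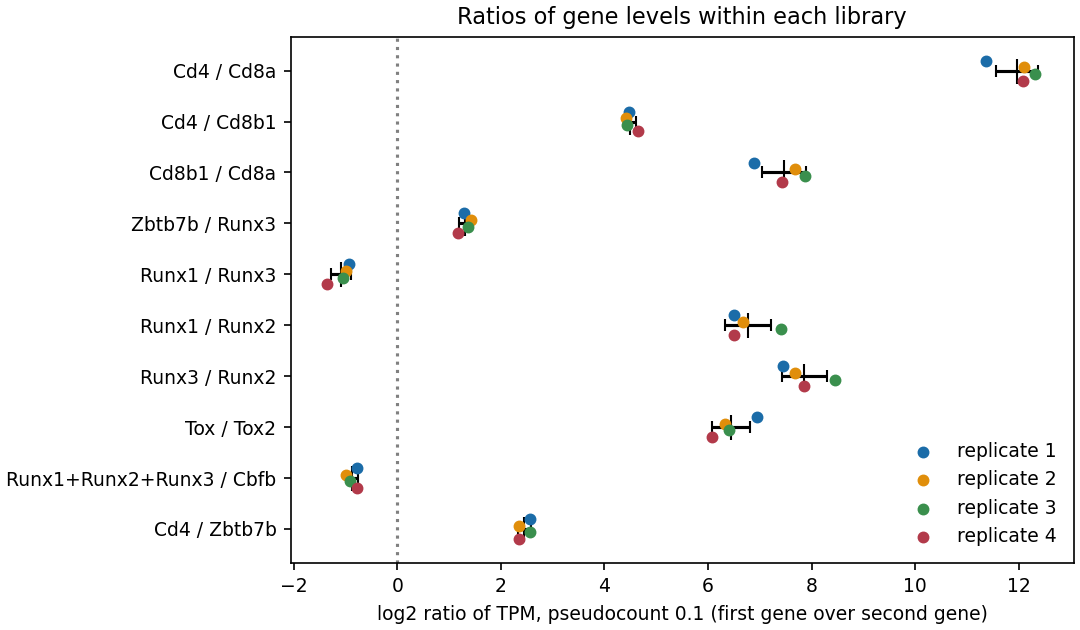
Log2 ratio of TPM with a pseudocount of 0.1 (horizontal) for the 10 gene pairs (vertical, first gene over second), with the 4 libraries as coloured points and the mean and SD marked. Every pair lies on the same side of 0 in all 4 libraries, from -1.09 for Runx1 over Runx3 to 11.97 for Cd4 over Cd8a.

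Genes of other cells were set beside Cd8b1. In bulk RNA, a few cells with much Cd8b1 and many cells with little cannot be told apart. Of the CD8 or cytotoxic list, 9 of 20 genes including Cd8b1 were at 1 TPM or more in every library, against 45.6% of nuclear protein-coding genes. The list summed to 360.4 to 384 TPM in a library. Ctsw, a protease gene of cytotoxic cells, was at 183 ± 12.3, the perforin gene Prf1 at 65.1 ± 7.28 and the receptor gene Klrd1 at 44.6 ± 4.86 TPM. The others at 1 TPM or more in every library were Fasl at 15.7 ± 0.812, Crtam at 5.99 ± 1.14, Eomes at 3.07 ± 0.792, Gzmm at 3.07 ± 0.207 and Cd160 at 2.03 ± 0.457 TPM. The lowest of the list were Klrk1, Klrc1 and Gzmk, genes of effector CD8 cells, near 0 at 0.0143 ± 0.0203, 0.0186 ± 0.0215 and 0.0557 ± 0.111 TPM.

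Of the genes listed for thymocytes that carry both coreceptors, 3 of 8 were at 1 TPM or more in every library, against 45.6% of nuclear protein-coding genes. The list summed to 85.8 to 95.6 TPM. Cd1d1 was at 61.4 ± 4.05 TPM and Dntt, which encodes terminal transferase, at 25.7 ± 2.07 TPM. The recombination genes Rag1 and Rag2 and the pre-receptor gene Ptcra had 0 counts in every library, which allows up to 3 counts in each.

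Outside T cells, 0 of 8 NK-cell genes were at 1 TPM or more in every library, with Fcer1g the highest at 0.862 ± 0.417 TPM, and the list summed to 1.09 to 3.13 TPM. The dendritic-cell list had 1 of 9, Cd74 at 7.79 ± 1.64 TPM, and summed to 8.29 to 12.1 TPM, while Clec9a and Xcr1, which mark dendritic cells that bear CD8 alpha, had 0 counts in every library. The B-cell list had 0 of 8, led by Cd79b at 1.46 ± 0.543 TPM, and summed to 2.56 to 3.84 TPM. The monocyte or macrophage list had 2 of 9, Ly6c2 at 1.94 ± 0.392 and Itgam at 1.61 ± 0.224 TPM, and summed to 3.39 to 5.05 TPM. The part of other cells in the Cd8b1 level was not tested.

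The neighbours of the coreceptor genes differed in level from gene to gene. Cd8b1 and Cd8a lie in the same direction with 35932 bases between them, and the 4 lincRNA or pseudogene entries that start in this gap held 8 counts over all libraries. Krcc1, upstream of Cd8b1, was at 128 ± 9.35 TPM, and Rmnd5a, downstream of Cd8a, at 98.0 ± 1.57 TPM. Smyd1, a muscle gene next to Cd8b1 on the other strand, was at 0.0263 ± 0.0261 TPM.

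Within 100 kb of Cd8a and Cd8b1, 3 of 5 protein-coding genes including Cd8b1 were at 1 TPM or more in every library. Within 100 kb of Cd4 the count was 10 of 14 including Cd4, against 45.6% of nuclear protein-coding genes. Lag3, the next gene upstream, encodes an inhibitory receptor related to CD4 that also binds MHC class II. Its level was 1.88, 1.62, 1.63 and 1.61 TPM in replicates 1 to 4, far below Cd4 in each library. The next gene downstream, Gpr162, was at 0.834 ± 0.166 TPM.

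**Figure D3:**
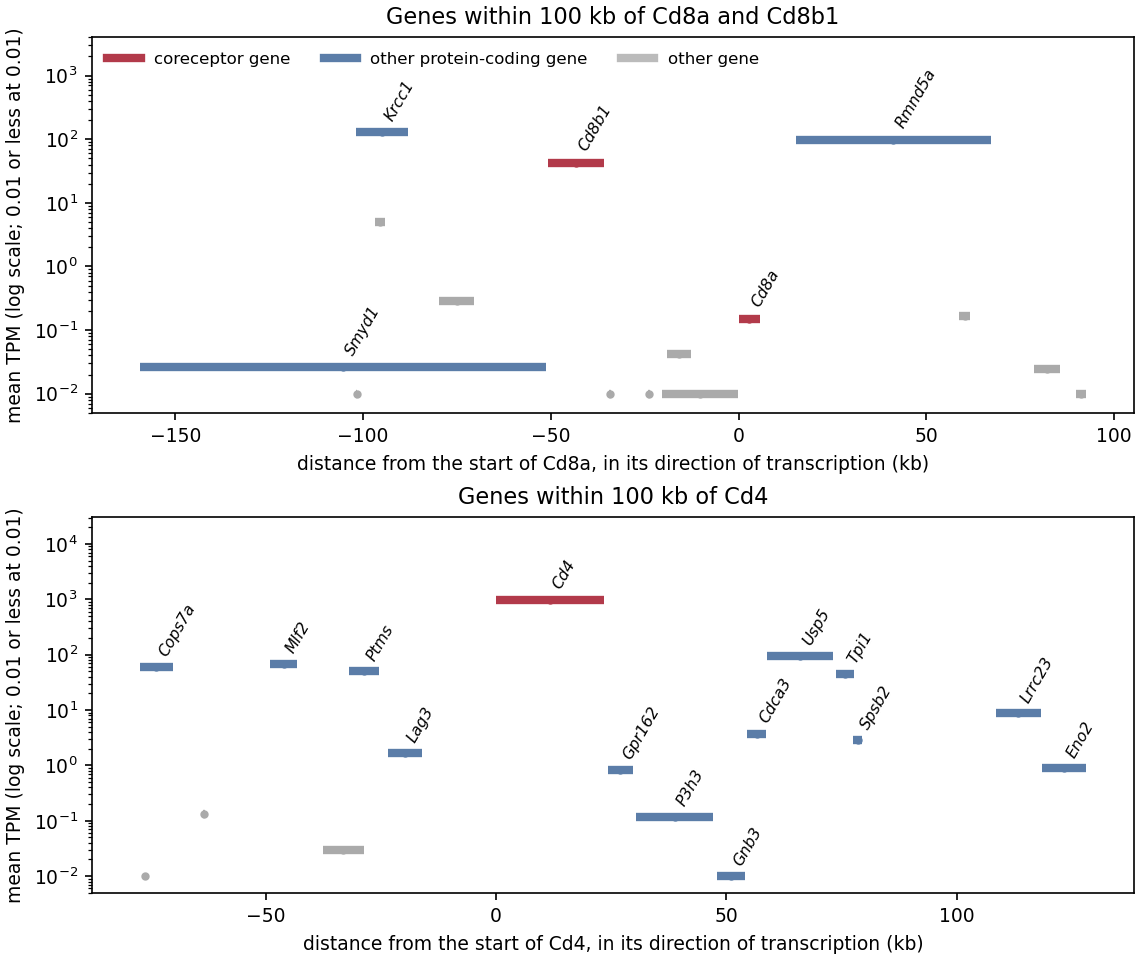
Mean TPM over the 4 libraries on a log scale (vertical) of genes within 100 kb of Cd8a and Cd8b1 and of Cd4, each drawn over its span as distance from the start of Cd8a or Cd4 (horizontal, kb). Cd8b1 at 42.9 TPM and Cd8a at 0.150 TPM stand apart within the same locus, and Cd4 at 969 TPM is the highest gene of its window.

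The gene for the CD4-lineage factor was above that for the CD8-lineage factor, and both were well expressed. Zbtb7b (ENSMUSG00000028042, mm10 chromosome 3, 89377644 to 89394776, minus strand) measured 163, 181, 170.4 and 194 TPM over replicates 1 to 4. Runx3 (ENSMUSG00000070691, mm10 chromosome 4, 135120652 to 135177990, plus strand) measured 66.8, 67.2, 66.0 and 86.2 TPM. These ranges did not overlap, and replicate 4 was the highest library for both genes.

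Zbtb7b exceeded Runx3 by 1.31 ± 0.11 on the log2 scale in 4 of 4 libraries, or 2.49 ± 0.192-fold in TPM. Cd4 exceeded Zbtb7b by 2.45 ± 0.12 on the same scale in 4 of 4 libraries. These are differences in RNA, and protein was not measured.

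The Runt-domain genes ranked Runx3, Runx1, Runx2. Runx1 (ENSMUSG00000022952, mm10 chromosome 16, 92601466 to 92826149, minus strand), which acts in blood stem cells and early thymocytes, measured 34.7, 33.7, 31.9 and 33.4 TPM in replicates 1 to 4. Runx2 (ENSMUSG00000039153, mm10 chromosome 17, 44495987 to 44814797, minus strand), the bone-forming factor of the family, had 21, 20, 11 and 31 counts, or 0.285, 0.228, 0.0876 and 0.271 TPM. Its 83 counts in all have an exact 95% Poisson interval of 66.1 to 103, and its highest library lay below the lowest of Runx1.

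Runx1 was below Runx3 in 4 of 4 libraries, with a log2 ratio of -1.09 ± 0.19. Of the summed TPM of the 3 Runx genes, Runx3 held 67.9% ± 2.81, Runx1 31.9% ± 2.80 and Runx2 0.205% ± 0.0814. The order of Runx1 and Runx3 rests on the length used. With the longest annotated transcript in place of all exons, a setting chosen after seeing the data, the log2 ratio was -0.44 and Runx1 was at 53.7 ± 1.89 TPM, still with Runx1 the lower in 4 of 4 libraries. With no length correction the mean log2 ratio was 0.15 ± 0.19, with overlapping ranges and Runx1 the higher in 3 of 4 libraries, all but replicate 4.

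Cbfb (ENSMUSG00000031885, mm10 chromosome 8, 105170674 to 105217989, plus strand) was at 175, 199.8, 185 and 207 TPM in the 4 libraries. The 3 Runx genes summed to 102, 101, 98.0 and 119.8 TPM, below their partner in 4 of 4 libraries, with a log2 ratio of -0.87 ± 0.10. With no length correction this ratio turned positive in 4 of 4 libraries, at 0.18 ± 0.092. In the order of levels Cbfb came after Cd4 and just above Zbtb7b, with overlapping ranges and Cbfb the higher in 4 of 4 libraries. That order rests on the length too: Cbfb was the higher in 2 of 4 libraries with the longest transcript, at 184 ± 13.6 TPM against 182 ± 13.5 TPM for Zbtb7b, and in 0 of 4 with no length correction.

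The HMG-box genes split. Tox (ENSMUSG00000041272, mm10 chromosome 4, 6686353 to 6991557, minus strand) measured 34.0, 29.5, 34.6 and 28.0 TPM in replicates 1 to 4. Tox2 (ENSMUSG00000074607, mm10 chromosome 2, 163203125 to 163324170, plus strand), known from follicular helper T cells, had 5, 9, 15 and 14 counts, or 0.176, 0.266, 0.310 and 0.318 TPM. Tox exceeded Tox2 by 6.44 ± 0.37 on the log2 scale in 4 of 4 libraries, and by 4.68 with a pseudocount of 1.

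Of the relatives outside the 10 genes, Tox4 was at 58.3 ± 2.93 and Zbtb7a at 48.0 ± 2.07 TPM, while Tox3 was at 0.0786 ± 0.00994 and Zbtb7c at 0.0223 ± 0.0206 TPM. Each of the TOX and ZBTB7 families thus held both well expressed and trace genes.

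In the full order, neighbouring levels overlapped for Cbfb and Zbtb7b, for Runx1 and Tox, for Tox2 and Runx2, and for Runx2 and Cd8a. The other neighbouring pairs did not overlap. Cd8b1 was above Runx1 and Tox with all exons counted as length. With the longest transcript Cd8b1 was at 34.1 ± 2.32 TPM, below Runx1 and below Tox at 48.3 ± 5.09 TPM. Tox2 was the higher of Tox2 and Runx2 in 3 of 4 libraries with all exons and in 1 of 4 with the longest transcript.

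Of the genes listed as acting upstream of Zbtb7b or Runx3, 25 of 25 were at 1 TPM or more in every library. That compares with 45.6% of nuclear protein-coding genes, and the list median was 119 TPM. Tcf7, for the T-cell factor TCF1, was at 3034 ± 375, Ets1 at 1000.4 ± 48.7, the interleukin 7 receptor gene Il7r at 803 ± 185 and the Ikaros gene Ikzf1 at 664 ± 28.4 TPM. Gata3, which acts ahead of Zbtb7b in the thymus, was at 48.1 ± 4.37 TPM, and Patz1, named for its role at the Cd8 genes after its values were seen, at 50.2 ± 5.67 TPM.

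Chromatin and corepressor partners were at that level for 21 of 23 genes, with a median of 66.7 TPM. The highest were Aes at 539.8 ± 14.3, the remodeller gene Chd4 at 335 ± 8.49, Ncor1 at 169 ± 6.88 and the BRG1 gene Smarca4 at 124 ± 4.32 TPM. The exceptions were Cbfa2t3 at 0.0516 ± 0.0461 TPM and Runx1t1, which had 0 counts in every library.

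Genes listed for T-cell receptor signalling, in which the coreceptors take part, were at that level for 17 of 17, with a median of 414 TPM. They were led by Lck at 1351 ± 38.9, Lat at 1089.9 ± 96.9, Cd5 at 875 ± 85.6 and Cd3d at 806 ± 18.7 TPM. This list shares genes with the T-cell list, among them Lck, Cd5 and Cd3d, so their medians are not independent. The CD4 helper list had 10 of 12, with a median of 21.1 TPM, led by Cd40lg at 257 ± 16.8, Izumo1r at 153 ± 2.27 and Tnfsf8 at 65.8 ± 5.76 TPM. The median of the CD8 or cytotoxic list was 1.12 TPM, and no list was tested against another.

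**Figure D4:**
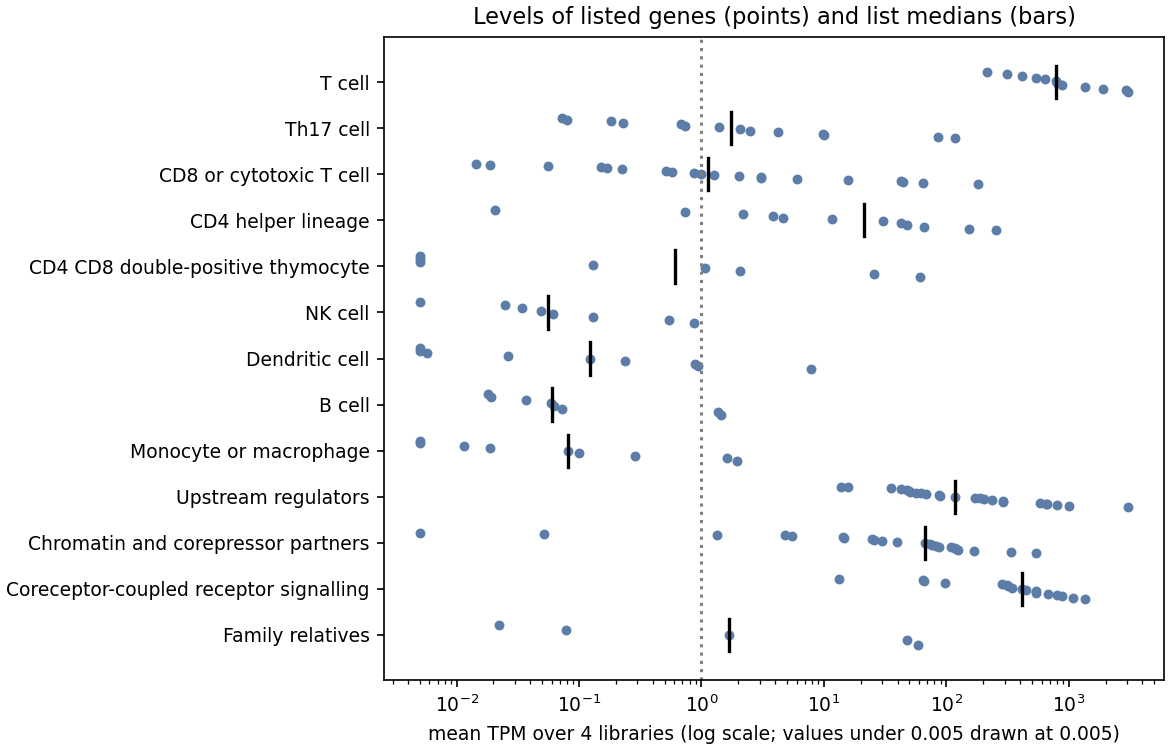
Mean TPM over the 4 libraries on a log scale (horizontal) of each listed gene (points) by list (vertical), with the list median as a bar. The medians of the T-cell, upstream regulator, chromatin and receptor signalling lists lie between 66.7 and 794 TPM, and those of the NK-cell, dendritic-cell, B-cell and myeloid lists lie below 0.2 TPM.

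The libraries were then compared with each other. An edgeR test asked which of 12464 genes past a filter on low counts spread more between libraries than genes of like abundance, and 24 (0.193%) did at an adjusted p below 0.05, against 5.34% at an unadjusted p below 0.05. Of the 10 genes, 7 passed the filter, edgeR called 0, and 1 had an unadjusted p below 0.05, Runx3 (edgeR adjusted p = 0.688). DESeq2 called 0 of the 7 as dispersion outliers, against 0.866% of the tested genes. With no filter on low counts edgeR called 349 of 21421 genes (1.63%), of the 10 genes Runx3 (adjusted p = 0.0291).

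Runx3 was high in replicate 4 alone. By Dixon's ratio for a lone sample, 1 of the 10 genes, Runx3, was past the 95% critical value. Of nuclear protein-coding genes at 1 TPM or more in every library, which include only 7 of the 10, 4.53% were past it. Without replicate 4 its level was 66.7 ± 0.609 TPM (n = 3), and its edgeR adjusted p was 0.997. On the scale of log2 CPM with TMM normalization, replicate 4 stood 0.40 above the mean of the other libraries, and 11.0% of the tested genes differed more in that library. The heat shock list was also highest in replicate 4, with a mean deviation of 0.69 on the log2(TPM + 1) scale, against -0.50, -0.00095 and -0.19 in replicates 1 to 3, and its part in the Runx3 value was not tested.

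Of the 7 genes at 1 TPM or more, 3 had their highest TPM in replicate 4, namely Zbtb7b, Runx3 and Cbfb, against 24.7% of nuclear protein-coding genes at that level. Tox and Cd8b1 had their lowest TPM there. The median coefficient of variation of the 7 genes was 7.48%, against 6.66% for nuclear protein-coding genes at that level.

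**Figure D5:**
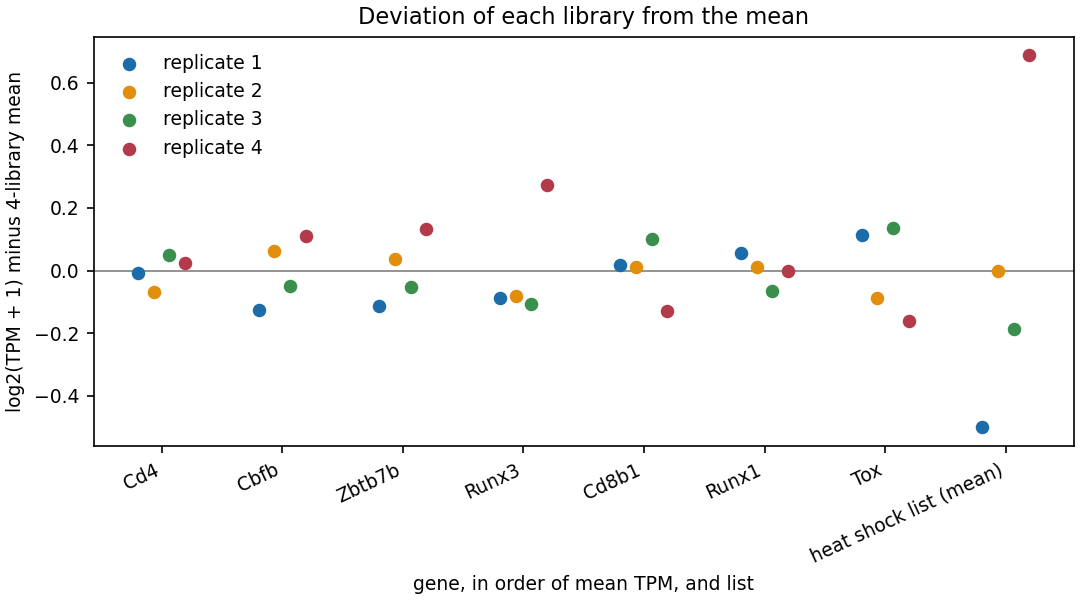
Deviation of log2(TPM + 1) from the mean of the 4 libraries (vertical) for the 7 genes at 1 TPM or more and for the mean of the heat shock list (horizontal), with libraries as coloured points. Replicate 4 is the highest point for Cbfb, Zbtb7b, Runx3 and the heat shock list, and the lowest for Cd8b1 and Tox.

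The genes closest in pattern over the 4 libraries were found by root mean square distance of log2(TPM + 1), each gene centred on its own mean, among 9925 protein-coding genes. For Runx3 they were the DNA sensor gene Cgas at a distance of 0.0240, Prag1 at 0.0303 and the AP-1 family gene Batf at 0.0306. Cgas measured 9.66, 9.79, 9.21 and 12.3 TPM and Batf 79.7, 79.7, 81.8 and 101 TPM over replicates 1 to 4. Both were picked for a pattern like that of Runx3, so a highest value in replicate 4 follows from the choice. Within 0.05 of Runx3 lay 28 genes, against 734 for Zbtb7b and 595 for Cd8b1. The distance is not scaled by spread, so these counts depend on how much each gene varied.

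For Zbtb7b the closest were 1700037H04Rik at 0.00535, Klf6 at 0.00588 and Pole4 at 0.00748. For Cd8b1 they were Brms1 at 0.00436, Zfp994 at 0.00680 and Ankrd40 at 0.00776. These genes too were picked for their pattern, so the likeness follows from the choice, and a shared control was not tested. No correlation is given, because there were fewer than 6 samples.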

How the data were processed

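Each deposited table holds the authors' raw counts of fragments by gene for a single library. Per the file headers, featureCounts 1.4.6-p4 counted pairs with both ends mapped over GENCODE M13 exons (mm10), with the reverse-strand setting and without multi-mapping fragments. Output names hold "star2", with no aligner version stated there. The labels name total RNA-seq as the assay, but the library protocol they link to is for poly(A)+ RNA. Genes on the opposite strand share 106 to 519 exon bases with Zbtb7b, Runx1, Runx2 and Tox, and no exon base of the 10 genes was shared with a gene of the same strand.

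Symbols were looked up in GENCODE M21 with version suffixes removed, for 50376 of 50600 IDs. TPM was calculated from these counts, with all annotated exons of a gene merged as its length. Chi-square per degree of freedom between library pairs was 9.45 to 29.9, and none were identical. Spread was tested with edgeR 4.0.16 in R 4.3.3 (intercept only, TMM, robust quasi-likelihood fit, one-sided F test against the prior trend, Benjamini-Hochberg over all tested genes), after a check on simulated data, with DESeq2 1.42.0 as an alternative. Gene pairs were compared by an exact sign-flip test. Other steps used Python 3.11.15, and start windows are from RefSeq.

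The 10 genes and the lists were chosen with earlier results of these data known. Named genes were the 10, up to the 4 highest of each list (2 for other cell types), defining markers at or near 0, neighbours of the coreceptor genes within 100 kb, and the 3 genes closest in pattern to Cd8b1, Zbtb7b and Runx3. Il17a, Patz1 and Zbtb7c fall outside this rule and were named for their roles after their values were seen. Further genes of the Th17 list and of the CD8 or cytotoxic list also fall outside it, named to show more of these lists after their values were seen.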

Additional observations from a re-analysis of the deposited data

Results flagged for a closer look

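Runx3 stands here because 1 library lay far from the other 3. Its level in replicate 4 was 86.2 TPM, while the others held 66.0 to 67.2 TPM. The gap was 0.941 of the whole range, above the 95% critical value of Dixon's ratio for 4 samples, 0.83. Chance flags about 1 in 20 groups, and 450 of 9926 nuclear protein-coding genes at 1 TPM or more in every library (4.53%) were past that value. The other 9 genes and the 10 log2 ratios were not past it.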

How the results depend on the processing

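The count of genes with excess spread, 24, was 349 of 21421 genes (1.63%) without a filter on low counts, 10 when the mean CPM had to reach 5, 5 when the fit was not made robust and 108 as DESeq2 dispersion outliers. It ranged from 7 to 86 when single libraries were left out, with 30, 13, 7 and 86 genes without replicates 1, 2, 3 and 4. The cause was not tested. Of the genes described, 1 was called without the filter, Runx3 at an edgeR adjusted p of 0.0291, and 0 under the other settings, where its edgeR adjusted p ranged from 0.625 to 0.997. The 10 log2 ratios kept their direction under both other pseudocounts, with the longest transcript as length and without each library. With no length correction Runx1 over Runx3 turned to 0.15 ± 0.19 (3 of 4 libraries) and the summed Runx genes over Cbfb to 0.18 (4 of 4), since dividing by length is the only step that setting leaves out. The count of genes at 1 TPM or more, 7, was the same under every setting run for it. No pairing of samples between groups was possible because the libraries form 1 group, while the gene pairs were compared within each library. Depth limits Cd8a, Runx2 and Tox2, whose 23, 83 and 43 counts leave their ratios dependent on the pseudocount.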
